A study of Arabidopsis thaliana with 35 samples.

Results

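The comparison set mature pollen of the acd15 acd21 sln triple mutant against mature pollen of the mbd5 mbd6 double mutant. Its 10 libraries, 5 of each genotype, were chosen by their sample titles from the 35 libraries of the series. The triple mutant (genotype acd15.5 acd21.4 sln in the labels) is mutated in ACD15, ACD21 and SLN, and mbd5 mbd6 in MBD5 and MBD6. Wild-type pollen, given beside both where a level needs a baseline, was also sequenced in 5 libraries. All of these plants share the ecotype Col0, and no transgene, treatment or age is named in the labels. The mutant lines are described by genotype only, so other differences between these lines and wild-type cannot be told apart from those of the named mutations.

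DNA methylation at CG sites marks silent genes and transposable elements in plants. MBD5 and MBD6 carry a methyl-CpG-binding domain and bind methylated CG sites. SLN is a J-domain protein, of the family that hands clients to HSP70 chaperones, and ACD15 and ACD21 carry the alpha-crystallin domain of small heat shock proteins. The title of the study places the 3 chaperone-type proteins in the control of MBD6, so the comparison asks how far pollen without them differs from pollen without MBD5 and MBD6 themselves.

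The study sequenced poly(A) RNA of mature pollen of 7 genotypes with 5 libraries each, prepared with a stranded kit. Beside those named above, the genotypes were sln, acd15, acd21 and acd15 acd21. Their libraries share the fit, served to choose a set of features and are given beside some levels. Replicates 1 and 2 of every genotype belonged to batch 1 and replicates 3 to 5 to batch 2. Since no label states that replicates are separate plantings, the p-values cover only the spread among these samples, which may be technical. Total counts were 9297585 to 16481077 in acd15 acd21 sln libraries, 10416059 to 16756573 in mbd5 mbd6 libraries and 12421593 to 15068798 in wild-type libraries. Levels are in CPM, that is counts scaled to library size. A feature was called when its adjusted p in edgeR's quasi-likelihood test, with batch as a term and Benjamini-Hochberg adjustment over all features tested, was under 0.05, and log2 changes are acd15 acd21 sln minus mbd5 mbd6 unless another pair is named.

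The tissue label was checked first. Of 22 vegetative cell and pollen tube genes, 21 passed the filter on low counts and 1 was called, and of 15 sperm cell genes, 14 passed and 0 were called by edgeR or DESeq2, beside 2.26% called of all tested features. The log2 change was below 0 for 10 of the 14 sperm cell genes, with a median of -0.10 beside -0.01 over all tested features. An unadjusted p under 0.05 was found for 5 of them, HAP2, DMP9, TIP5;1, TET11 and TET12, all with lower levels in acd15 acd21 sln, and the part of this difference in other results was not tested. In bulk libraries such as these, fewer cells of a type and less RNA per cell cannot be told apart. The vegetative genes summed to between 28468 and 37420 CPM in acd15 acd21 sln libraries, between 28962 and 37765 CPM in mbd5 mbd6 libraries and between 29611 and 35649 CPM in wild-type libraries. Sperm cell genes summed to between 1568 and 1930.2 CPM in acd15 acd21 sln, between 1693 and 1848 CPM in mbd5 mbd6 and between 1690.3 and 1829 CPM in wild-type. Photosynthesis genes, which mark green tissue, summed to no more than 39.2 CPM in acd15 acd21 sln, 64.2 CPM in mbd5 mbd6 and 66.8 CPM in wild-type. Reads in no feature were 0.217 to 0.887% in acd15 acd21 sln, 0.369 to 0.951% in mbd5 mbd6 and 0.529 to 0.944% in wild-type. The first principal component of the 10 mutant libraries held 31.4% of their variance. In all 5 same-numbered pairs the mbd5 mbd6 library lay on the same side of the acd15 acd21 sln library, though the ranges of the genotypes overlapped. The component set library 1 of acd15 acd21 sln and library 1 of mbd5 mbd6, which had the most reads in no feature of their genotypes, at one end and library 2 of acd15 acd21 sln at the other.

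The mutated genes were looked at first, and each genotype had few or no reads of the 1 mutated gene of its own that could be counted. MBD6 (AT5G59380, chr5:23952132-23953707, plus strand, TAIR10.1) had 1.32, 0.755, 0.951, 0.614 and 1.09 CPM in acd15 acd21 sln, against 0, 0, 0, 0 and 0.110 CPM in mbd5 mbd6. MBD6 reads were thus found in all 5 acd15 acd21 sln libraries and in 1 of the 5 mbd5 mbd6 libraries. Over all libraries that was 64 counts in acd15 acd21 sln and 2 in mbd5 mbd6, a depth-corrected ratio of 31.5 (95% exact counting interval 8.38 to 266, counting error only; adjusted p = 5.79e-08). Its level was 0.946 ± 0.278 CPM in acd15 acd21 sln and 0.815 ± 0.147 CPM in wild-type (SD, n = 5 each), and it was not called between these. SLN (AT5G37380, chr5:14816734-14819346, minus strand) had 0.220, 0.252, 0.219, 0.368 and 0.172 CPM in acd15 acd21 sln, against 4.15, 4.11, 4.13, 3.83 and 3.48 CPM in mbd5 mbd6. Its groups did not overlap (log2 change -4.02 ± 0.26 SE, adjusted p = 8.60e-16), and wild-type held 4.51 ± 0.286 CPM (SD, n = 5). ACD15.5 had 0 counts in all wild-type libraries, and MBD5 and ACD21.4 had at most 3 counts in any wild-type library, so that these 3 genes were below the filter and do not check the labels. The identifiers of SLN, ACD15.5 and ACD21.4 are background knowledge, since the files name genes by locus only.

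The gene downstream of MBD6 differed with it. AT5G59390, which codes for a protein with XH and XS domains and starts 618 bases past the end of MBD6 on the same strand, had 0.955, 2.01, 0.878, 0.368 and 0.515 CPM in acd15 acd21 sln, against 0.239, 0.0934, 0.206, 0.205 and 0.110 CPM in mbd5 mbd6, and 1.73, 1.01, 1.15, 0.316 and 0.352 CPM in wild-type. The mutant groups did not overlap (log2 change 2.39 ± 0.46 SE, adjusted p = 7.36e-04), but this gene rested on at most 24 counts in a library, and within batch 2 alone the adjusted p was 0.154. Its mean was 0.946 ± 0.645 CPM in acd15 acd21 sln and 0.912 ± 0.593 CPM in wild-type (SD, n = 5 each). The gene lies beside the mbd6 allele, so effects of that allele on its neighbour and of the lost proteins cannot be told apart.

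**Figure D1:**
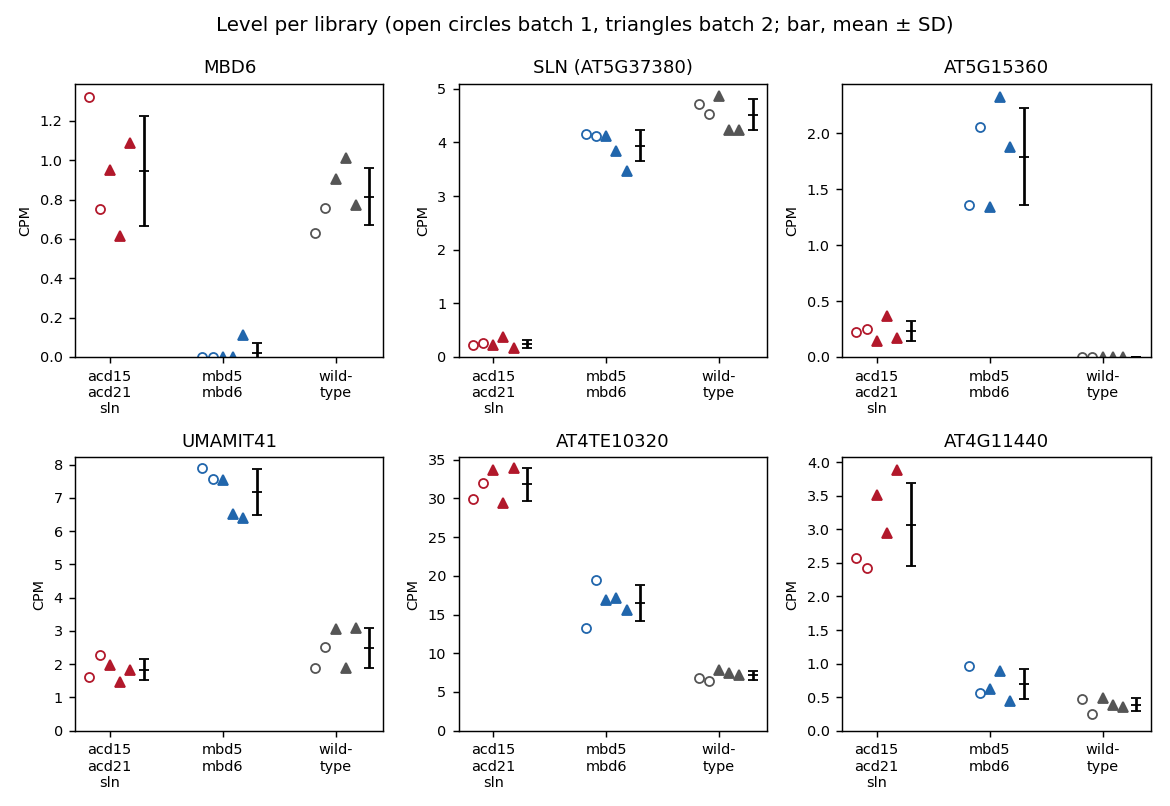
Each panel plots the CPM of 1 feature (linear axis from 0) in the 5 libraries of acd15 acd21 sln, mbd5 mbd6 and wild-type; open circles are batch 1, filled triangles batch 2, and the bar is the mean ± SD. MBD6 is at or near 0 in mbd5 mbd6, SLN near 0 in acd15 acd21 sln, AT5G15360 and UMAMIT41 are higher in mbd5 mbd6, and AT4TE10320 and AT4G11440 are higher in acd15 acd21 sln.

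Across the transcriptome the genotypes were close. Of 12106 features tested, 132 were higher in acd15 acd21 sln (1.09% of those tested) and 141 were lower (1.16%), 273 in all (2.26%). The median log2 change over all tested features was -0.01. Among those called, 35 were higher and 29 were lower by at least 2-fold, and the median log2 change was 0.48 for those higher and -0.54 for those lower. CPM ranges of the 2 genotypes did not overlap for 344 tested features (2.84%), of which 178 were also called. An unadjusted p under 0.05 was found for 1521 features. Against wild-type, 463 features were higher (3.82%) and 286 lower (2.36%) in acd15 acd21 sln, and 495 were higher (4.09%) and 174 lower (1.44%) in mbd5 mbd6. These comparisons share the wild-type libraries, so their overlap is not given as a result.

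Features outside protein-coding genes made up a larger part of the calls than of the features tested. Of 9849 protein-coding genes tested, 80 were higher and 79 lower (1.61%). Of 153 pseudogenes, 13 were higher and 4 lower (11.1%), and of 258 transposable elements, 10 were higher and 15 lower (9.69%). Of 318 coding and 1219 noncoding transcripts that the authors' annotation adds to the reference genes, 7 and 18 were higher and 13 and 22 were lower (6.29 and 3.28%), and of 280 noncoding RNA genes 4 were higher and 7 lower (3.93%). Among 11 merged loci 1 was lower, and none of 12 organelle genes and 6 other features was called. The count of lower transposable elements was 8 without library 3 of acd15 acd21 sln. The median log2 change was 0.01 for protein-coding and for pseudogenes, -0.11 for transposable elements, -0.12 for added coding and -0.18 for added noncoding transcripts. Reads in no feature averaged 0.447 ± 0.266% in acd15 acd21 sln and 0.605 ± 0.215% in mbd5 mbd6 (SD, n = 5 each), and their part in these medians was not tested. Reads with several alignments are not shown in the deposited tables, which makes the levels of repeated sequences (transposable elements, pseudogenes, gene families) uncertain.

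**Figure D2:**
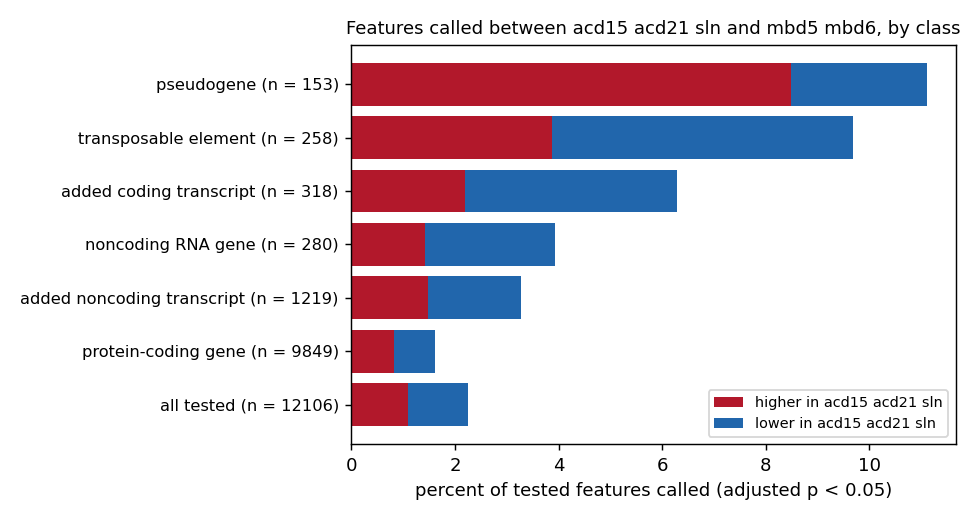
Bars give the percentage of tested features of each class that were called, red for higher and blue for lower in acd15 acd21 sln than in mbd5 mbd6, with the number tested beside each class. Pseudogenes (11.1%) and transposable elements (9.69%) lie above protein-coding genes (1.61%) and above all tested features (2.26%).

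The features that the other mutants of the series raise were nearly as high in acd15 acd21 sln as in mbd5 mbd6. They were taken as the 285 features called higher than wild-type in each of sln, acd15, acd21 and acd15 acd21 pollen, whose libraries are in neither group compared but share the fit and so its estimate of the spread. With the 10 libraries alone, 29 of the set were higher and 21 lower. These 285 features took 0.474 ± 0.0380% of counts in acd15 acd21 sln, 0.480 ± 0.0428% in mbd5 mbd6 and 0.166 ± 0.00669% in wild-type (SD, n = 5 each). Their median log2 change against wild-type was 2.37 in acd15 acd21 sln, where 274 were called higher, and 2.28 in mbd5 mbd6, where 271 were called higher. All of these comparisons share the wild-type libraries. Between the 2 mutants their median log2 change was -0.05, beside -0.01 over all tested features, with an interquartile range of -0.36 to 0.26. In all, 256 of the 285 differed by less than 2-fold.

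Single members of that set did differ. Of the 285, 31 were higher and 27 lower in acd15 acd21 sln, 20.4% of the set beside 2.26% of all tested features. By class, 7 of 45 pseudogenes were higher and 3 lower, 6 of 69 transposable elements were higher and 8 lower, 8 of 83 added noncoding transcripts were higher and 9 lower, and 6 of 46 protein-coding genes were higher and 3 lower. Log2 changes over the set reached from -1.77 for novel_Chr4_noncoding_202 to 3.91 for AT2G06690. Of the 6 most abundant members 1 was called. AT1G67750, a pectate lyase family gene, AT2TE27820, AT3TE60310, novel_Chr3_noncoding_901 and novel_Chr4_noncoding_162 were not called, with log2 changes between -0.10 and 0.17. AT1G67750 had 601, 663, 606, 636 and 611 CPM in acd15 acd21 sln, against 532, 561, 593, 527 and 549 CPM in mbd5 mbd6, groups that did not overlap (log2 change 0.17 ± 0.05 SE, adjusted p = 0.0838), and 4.47 ± 0.994 CPM in wild-type. It and AT2TE27820 were each called in 3 of 21 alternative settings. AT3G31475, a pseudogene, had 146, 155, 156, 157 and 157 CPM in acd15 acd21 sln, against 115, 115, 138, 117 and 120.2 CPM in mbd5 mbd6 (log2 change 0.35 ± 0.08 SE, adjusted p = 0.00546), groups that did not overlap, and 5.11 ± 2.06 CPM in wild-type. FWA, a homeodomain gene whose silencing by promoter methylation is well known, had 8.60, 11.4, 11.3, 9.21 and 10.13 CPM in acd15 acd21 sln, against 9.09, 9.43, 8.98, 7.87 and 7.39 CPM in mbd5 mbd6, overlapping groups that were not called (log2 change 0.26 ± 0.10 SE, adjusted p = 0.224).

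**Figure D3:**
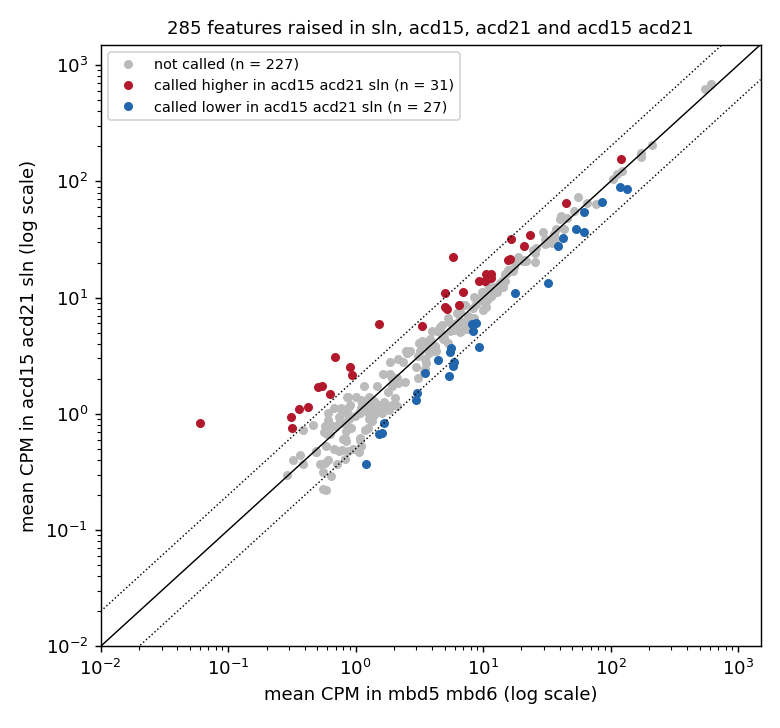
Each point is 1 of the 285 features called higher than wild-type in each of sln, acd15, acd21 and acd15 acd21; axes give the mean CPM (log scales, n = 5 libraries each) in acd15 acd21 sln (vertical) and mbd5 mbd6 (horizontal), the solid line marks equal levels and the dotted lines a 2-fold difference. The 31 features called higher (red) in acd15 acd21 sln lie above the solid line and the 27 called lower (blue) below it. The 227 that were not called (grey) lie on both sides of the solid line, some of them farther from it than called ones. By their fitted log2 changes, which can differ slightly from the plotted means, 256 of the 285 differed by less than 2-fold.

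Among the members higher in acd15 acd21 sln, AT4TE10320, a transposable element, had the smallest adjusted p. It had 29.98, 32.0, 33.7, 29.4 and 33.9 CPM in acd15 acd21 sln, against 13.3, 19.5, 16.9, 17.1 and 15.6 CPM in mbd5 mbd6, and 6.77, 6.46, 7.83, 7.45 and 7.26 CPM in wild-type. All 5 libraries of acd15 acd21 sln lay above all 5 of mbd5 mbd6, which in turn lay above wild-type (log2 change 0.96 ± 0.07 SE, adjusted p = 1.68e-14, and 0.92 in batch 1 and 0.99 in batch 2). AT4G11440, annotated as a mitochondrial substrate carrier, had 2.57, 2.43, 3.51, 2.95 and 3.89 CPM in acd15 acd21 sln, against 0.957, 0.560, 0.619, 0.890 and 0.441 CPM in mbd5 mbd6 (log2 change 2.17 ± 0.22 SE, adjusted p = 8.05e-10). These groups did not overlap, and mbd5 mbd6 was not called against wild-type, which had 0.390 ± 0.0979 CPM, while sln pollen averaged 2.99 ± 0.575 CPM and acd15 acd21 pollen 1.27 ± 0.449 CPM (SD, n = 5 each). AT3TE51735, a transposable element near 0 in wild-type, averaged 65.2 ± 6.44 CPM in acd15 acd21 sln and 44.4 ± 3.21 CPM in mbd5 mbd6 (log2 change 0.56 ± 0.07 SE, adjusted p = 6.71e-07). Its groups did not overlap, and its log2 change was 0.32 in batch 1 and 0.71 in batch 2, where the adjusted p in batch 1 was 0.0980.

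The added transcripts novel_Chr4_noncoding_299 and novel_Chr5_noncoding_104 were among the largest changes. The transcript novel_Chr4_noncoding_299 had 6.24, 4.70, 3.95, 6.75 and 8.01 CPM in acd15 acd21 sln, against 1.20, 1.31, 1.65, 1.64 and 1.88 CPM in mbd5 mbd6 (log2 change 1.95 ± 0.18 SE, adjusted p = 1.88e-10). The transcript novel_Chr5_noncoding_104 had 21.5, 19.2, 19.8, 24.1 and 26.2 CPM in acd15 acd21 sln, against 4.55, 5.14, 5.88, 6.09 and 7.17 CPM in mbd5 mbd6 (log2 change 1.93 ± 0.23 SE, adjusted p = 2.33e-06). Neither overlapped between the mutants, and wild-type averaged 0.675 ± 0.185 CPM for novel_Chr4_noncoding_299 and 4.02 ± 2.44 CPM for novel_Chr5_noncoding_104 (SD, n = 5). In AT2TE09205, another transposable element, the levels were 2.35, 1.34, 1.76, 1.47 and 1.83 CPM in acd15 acd21 sln, against 0.399, 0.467, 0.619, 0.684 and 0.552 CPM in mbd5 mbd6 (log2 change 1.68 ± 0.30 SE, adjusted p = 1.79e-04), with reads in 1 of 5 wild-type libraries.

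The widest gap of the set was in AT2G06690, a pseudogene with few reads. It had 16, 11, 12, 5 and 10 counts in acd15 acd21 sln libraries, against 0, 1, 2, 0 and 0 counts in mbd5 mbd6 libraries, and 0 counts in all 5 wild-type libraries. The 54 counts of acd15 acd21 sln against 3 of mbd5 mbd6 gave a depth-corrected ratio of 17.7 (95% exact counting interval 5.76 to 88.7; adjusted p = 1.21e-04). Against the floor of 3 counts over the wild-type group, acd15 acd21 sln was at least 18.23-fold higher. The sequence upstream of this gene is shown with that of AT5G15360, which moved the other way and is described with the lower features, because MBD5 and MBD6 bind methylated CG sites. Both are the 250 bases before the RefSeq start in TAIR10.1 (chr2:2669985-2670234, plus strand, and chr5:4989183-4989432, minus strand), written 5′ to 3′ on the strand of the gene with CG in capitals.
AT2G06690 promoter: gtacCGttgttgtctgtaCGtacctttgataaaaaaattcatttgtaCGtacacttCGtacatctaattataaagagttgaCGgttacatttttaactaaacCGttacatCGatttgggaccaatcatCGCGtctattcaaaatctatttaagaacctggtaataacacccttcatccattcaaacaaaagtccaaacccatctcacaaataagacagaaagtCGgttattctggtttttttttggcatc
AT5G15360 promoter: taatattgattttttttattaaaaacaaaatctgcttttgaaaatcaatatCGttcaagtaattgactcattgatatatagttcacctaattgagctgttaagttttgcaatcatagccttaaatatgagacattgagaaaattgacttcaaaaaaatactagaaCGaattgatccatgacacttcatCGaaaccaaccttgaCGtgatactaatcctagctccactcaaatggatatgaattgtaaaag
CG, which reads the same on both strands, stands 10 times upstream of AT2G06690 and 4 times upstream of AT5G15360. In like windows it stands 3 times upstream of AT1G67750, 5 times upstream of UMAMIT41, 7 times upstream of FWA and 9 times upstream of SYP122. A link between the number of CG and the direction of change was not tested. Over 27007 protein-coding genes the median of such windows is 5, and 12.4% hold at least 10. Methylation was not measured here.

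On the lower side of the set, AT4TE15500, a transposable element, had 2.57, 2.18, 1.68, 1.72 and 2.40 CPM in acd15 acd21 sln, against 5.42, 4.76, 6.81, 4.52 and 5.30 CPM in mbd5 mbd6, and 0, 0, 0.165, 0 and 0.141 CPM in wild-type (log2 change -1.30 ± 0.16 SE, adjusted p = 2.22e-07). Both mutants lay above every wild-type library and did not overlap with each other. The added transcript novel_Chr4_noncoding_193 averaged 13.3 ± 2.80 CPM in acd15 acd21 sln and 32.5 ± 3.98 CPM in mbd5 mbd6 (log2 change -1.30 ± 0.13 SE, adjusted p = 5.37e-08), beside 13.7 ± 1.78 CPM in sln and 30.7 ± 4.10 CPM in acd15 acd21 (SD, n = 5 each). Its groups did not overlap, and within batch 1 alone its adjusted p was 0.0820. For novel_Chr4_noncoding_202 the levels were 0.0735, 0.0839, 0.366, 0.737 and 0.572 CPM in acd15 acd21 sln, against 1.04, 1.21, 1.03, 1.57 and 1.21 CPM in mbd5 mbd6 (log2 change -1.77 ± 0.32 SE, adjusted p = 2.26e-04). Its log2 change was -3.69 in batch 1 and -1.25 in batch 2, more than 1.5 times apart, and in batch 2 the adjusted p was 0.0749.

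The protein-coding gene with the largest fall after SLN was AT5G15360 (chr5:4987437-4989182, minus strand), which codes for an uncharacterized protein. It had 0.220, 0.252, 0.146, 0.368 and 0.172 CPM in acd15 acd21 sln, against 1.36, 2.05, 1.34, 2.33 and 1.88 CPM in mbd5 mbd6, and 0 counts in all 5 wild-type libraries. The mutant groups did not overlap (log2 change -3.01 ± 0.31 SE, adjusted p = 6.97e-09, and -2.80 in batch 1 and -3.15 in batch 2). In counts, acd15 acd21 sln held 14 reads and mbd5 mbd6 120, so that against the floor of 3 counts over the wild-type group acd15 acd21 sln was at least 4.73-fold and mbd5 mbd6 at least 41.1-fold higher. Its mean in the other mutants was 0.00721 CPM in sln, 0.217 CPM in acd15, 0.175 CPM in acd21 and 3.22 CPM in acd15 acd21 (n = 5 each).

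SYP122 and AT1G67105 were called higher than wild-type in both mutants and did not belong to the set, since sln pollen was not called higher for them. SYP122, a plasma membrane syntaxin, had 10.5, 9.64, 10.5, 9.82 and 13.9 CPM in acd15 acd21 sln, against 5.74, 6.63, 7.02, 8.42 and 9.10 CPM in mbd5 mbd6, and 0.0787, 0.252, 0, 0.126 and 0.0705 CPM in wild-type. The mutant groups did not overlap, library 5 of acd15 acd21 sln stood above its other libraries, and the change was modest (log2 change 0.56 ± 0.11 SE, adjusted p = 0.00147), with an adjusted p of 0.0968 in batch 2 alone. In sln pollen SYP122 averaged 0.0991 ± 0.0839 CPM and in acd15 acd21 pollen 15.38 ± 2.34 CPM (SD, n = 5 each). AT1G67105, a noncoding RNA gene, had 1.40, 3.86, 3.07, 6.14 and 5.32 CPM in acd15 acd21 sln, against 0.479, 0.747, 1.03, 0.547 and 1.21 CPM in mbd5 mbd6 (log2 change 2.25 ± 0.26 SE, adjusted p = 5.03e-08), beside 0.222 ± 0.0541 CPM in sln, 1.36 ± 0.390 CPM in acd15 acd21 and 0.184 ± 0.163 CPM in wild-type (SD, n = 5 each). NAC105, a transcription factor gene, had 27.2 ± 3.16 CPM in acd15 acd21 sln and 27.0 ± 2.70 CPM in mbd5 mbd6 and was not called (log2 change 0.02 ± 0.09 SE, adjusted p = 0.964). In acd15 acd21 it had 0.197 ± 0.153 CPM, much lower than in acd15 acd21 sln and mbd5 mbd6 (SD, n = 5 each).

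As a whole, transposable elements took 0.377 ± 0.0318% of counts in acd15 acd21 sln and 0.395 ± 0.0312% in mbd5 mbd6 (SD, n = 5 each), a difference of -0.0183 percentage points. An exact two-sided permutation test within batches gave p = 0.283, where 120 splits allow no p under 0.0167. Within batch 1 the difference was -0.00515 (exact p = 1.0) and within batch 2 it was -0.0271 (exact p = 0.30), designs of 6 and 20 splits. Wild-type libraries held 0.292 ± 0.0162% (SD, n = 5). The ranges of the mutants overlapped, from 0.337 to 0.423% in acd15 acd21 sln and from 0.358 to 0.435% in mbd5 mbd6.

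A few features were called against wild-type in opposite directions. COPT2, YSL2 and the pseudogene AT4G04692 were higher than wild-type in acd15 acd21 sln and lower in mbd5 mbd6. PGP10, an ABC transporter gene of the P-glycoprotein family, was lower than wild-type in acd15 acd21 sln and higher in mbd5 mbd6. Both of these PGP10 calls were near the threshold (log2 change -0.20, adjusted p = 0.0348, and log2 change 0.19, adjusted p = 0.0408). PGP10 also belongs to the set of 285, with means of 44.6 CPM in sln, 48.4 CPM in acd15, 51.0 CPM in acd21 and 49.8 CPM in acd15 acd21. Of the 132 features higher in acd15 acd21 sln than in mbd5 mbd6, 67 were called higher and 1 lower than wild-type in acd15 acd21 sln, and 30 were called higher and 37 lower than wild-type in mbd5 mbd6. Of the 141 lower, 27 were called higher and 38 lower than wild-type in acd15 acd21 sln, and 74 were called higher and 2 lower than wild-type in mbd5 mbd6. Both comparisons use the same wild-type libraries. AT4G04692 had 2.06, 1.93, 2.34, 2.95 and 4.29 CPM in acd15 acd21 sln, against 0.957, 0.934, 0.722, 0.958 and 0.772 CPM in mbd5 mbd6 (log2 change 1.66 ± 0.23 SE, adjusted p = 2.37e-06), and in batch 1 alone its adjusted p was 0.286. PGP10 averaged 32.4 ± 2.81 CPM in acd15 acd21 sln, 42.6 ± 2.91 CPM in mbd5 mbd6 and 37.1 ± 2.84 CPM in wild-type (SD, n = 5 each; log2 change -0.39 ± 0.06 SE, adjusted p = 1.33e-05).

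COPT2 and YSL2 both serve metal uptake. COPT2 is a high-affinity copper transporter of the plasma membrane, and YSL2 belongs to a family that carries metals bound to nicotianamine. COPT2 (chr3:17268700-17269510, plus strand) had 81.0, 63.9, 76.7, 83.1 and 90.0 CPM in acd15 acd21 sln, against 27.0, 23.1, 22.9, 19.2 and 17.1 CPM in mbd5 mbd6, and 62.5, 47.3, 42.5, 36.4 and 39.8 CPM in wild-type. All acd15 acd21 sln libraries lay above all wild-type libraries, and these above all mbd5 mbd6 libraries (log2 change 1.88 ± 0.18 SE, adjusted p = 2.96e-08, and 1.53 in batch 1 and 2.11 in batch 2, where the adjusted p in batch 1 was 0.0675). YSL2 (chr5:8323895-8326705, plus strand) had 73.5, 67.7, 70.1, 59.6 and 65.5 CPM in acd15 acd21 sln, against 29.6, 26.9, 25.2, 23.2 and 22.2 CPM in mbd5 mbd6, and 51.5, 46.2, 36.2, 31.0 and 31.8 CPM in wild-type. Its 3 groups did not overlap either (log2 change 1.42 ± 0.10 SE, adjusted p = 1.04e-10, and 1.31 in batch 1 and 1.49 in batch 2). In the other mutants COPT2 averaged between 40.0 CPM in acd21 and 65.0 CPM in acd15 acd21, and YSL2 between 34.9 and 50.3 CPM in the same mutants (n = 5 each).

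Genes of copper uptake and use were then looked at as a list of 25, which was drawn up after the values of COPT2 and YSL2 were seen and holds both. Of the list, 13 passed the filter on low counts. Apart from COPT2 and YSL2, 3 of 11 were higher and 1 was lower, beside 1.09% and 1.16% of all tested features, and the median log2 change of the 11 was 0.16. CCH, a copper chaperone, had 158, 156, 153, 177 and 148 CPM in acd15 acd21 sln, against 103, 109, 93.8, 81.3 and 65.7 CPM in mbd5 mbd6 (log2 change 0.82 ± 0.12 SE, adjusted p = 4.48e-05), groups without overlap, and 124 ± 15.1 CPM in wild-type. COPT1, a copper transporter that pollen expresses strongly, averaged 796 ± 114 CPM in acd15 acd21 sln and 582 ± 66.2 CPM in mbd5 mbd6 (log2 change 0.45 ± 0.10 SE, adjusted p = 0.00832), again without overlap, with an adjusted p of 0.0621 in batch 2 alone. FRO4 (AT5G23980), a reductase that supplies copper for uptake, had 2.13, 1.51, 1.61, 1.35 and 1.43 CPM in acd15 acd21 sln, against 1.28, 0.747, 1.24, 0.958 and 0.552 CPM in mbd5 mbd6 (log2 change 0.80 ± 0.22 SE, adjusted p = 0.0438). Wild-type averaged 2.30 ± 0.259 CPM (SD, n = 5), above the means of both mutants. Against wild-type, FRO4 was called lower in mbd5 mbd6 (log2 change -1.30, adjusted p = 8.42e-06). In acd15 acd21 sln it was not called against wild-type (log2 change -0.51, adjusted p = 0.116). Between the mutants, FRO4 had the weakest call of the 5. It was not called in batch 1 alone (adjusted p = 0.560) or in batch 2 alone (adjusted p = 0.250), nor by DESeq2 (adjusted p = 0.0939). The call was also lost, with adjusted p between 0.0511 and 0.216, when any 1 of libraries 1, 3, 4 and 5 of acd15 acd21 sln or libraries 2, 4 and 5 of mbd5 mbd6 was left out, and counts of FRO4 and its adjacent paralog FRO5 may be mixed. CSD1, a copper/zinc superoxide dismutase that uses copper, was lower, with 1.91, 2.096, 2.63, 1.84 and 3.03 CPM in acd15 acd21 sln, against 4.87, 3.64, 4.23, 5.89 and 6.45 CPM in mbd5 mbd6, and 2.83, 2.097, 2.72, 2.71 and 3.17 CPM in wild-type. It did not overlap between the mutants (log2 change -1.11 ± 0.16 SE, adjusted p = 3.27e-06, and -1.10 in batch 1 and -1.11 in batch 2). CSD2 moved by -0.78 (adjusted p = 0.138) and FSD1, the iron counterpart of these enzymes, by 0.86 (adjusted p = 0.162) on the log2 scale, and neither was called. SPL7, the transcription factor of the copper deficiency response, had 61.8 ± 2.11 CPM in acd15 acd21 sln and 59.0 ± 2.60 CPM in mbd5 mbd6 and was not called, and neither were COPT5, ATX1, HMA5 and RAN1. The other 12 genes of the list had few reads.

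**Figure D4:**
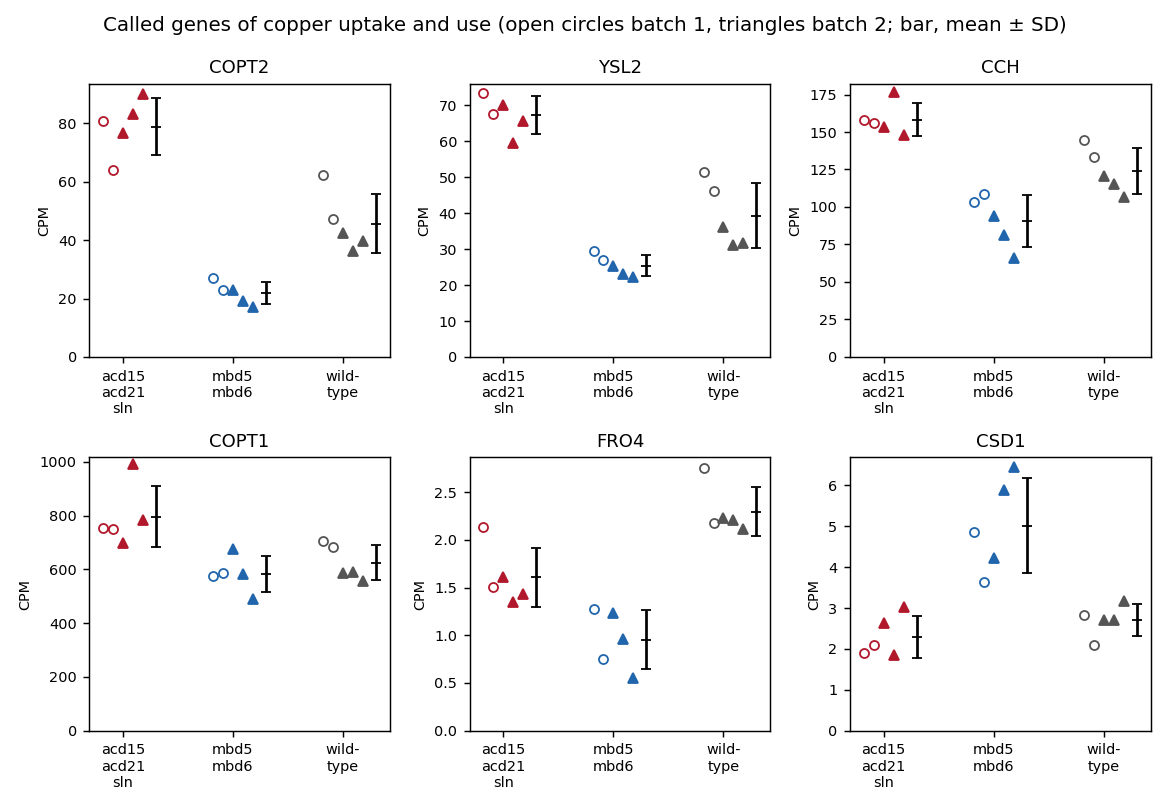
Panels plot the CPM (linear axes from 0) of the 6 called genes of the copper list in the 5 libraries of acd15 acd21 sln, mbd5 mbd6 and wild-type; open circles are batch 1, filled triangles batch 2, and the bar is the mean ± SD. COPT2, YSL2, CCH, COPT1 and FRO4 are higher and CSD1 is lower in acd15 acd21 sln than in mbd5 mbd6, and the 2 mutants overlap in none of the 6.

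The copper genes were not all alike in their upstream sequence. SPL7 binds the letters GTAC, which read the same on both strands, so the 250 bases before the RefSeq start in TAIR10.1 are shown for 4 of the genes with GTAC in capitals. They lie at chr3:17268450-17268699, plus strand, at chr5:8323645-8323894, plus strand, at chr3:20864728-20864977, minus strand, and at chr1:2826810-2827059, plus strand.
COPT2 promoter: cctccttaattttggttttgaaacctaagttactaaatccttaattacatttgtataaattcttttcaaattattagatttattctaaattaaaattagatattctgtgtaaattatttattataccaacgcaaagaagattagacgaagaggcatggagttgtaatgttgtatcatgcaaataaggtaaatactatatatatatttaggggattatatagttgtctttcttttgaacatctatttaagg
YSL2 promoter: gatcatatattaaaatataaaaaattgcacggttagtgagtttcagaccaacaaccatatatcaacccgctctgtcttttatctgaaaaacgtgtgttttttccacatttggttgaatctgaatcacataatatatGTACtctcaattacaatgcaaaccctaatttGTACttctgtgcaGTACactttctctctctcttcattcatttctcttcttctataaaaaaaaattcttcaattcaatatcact
CCH promoter: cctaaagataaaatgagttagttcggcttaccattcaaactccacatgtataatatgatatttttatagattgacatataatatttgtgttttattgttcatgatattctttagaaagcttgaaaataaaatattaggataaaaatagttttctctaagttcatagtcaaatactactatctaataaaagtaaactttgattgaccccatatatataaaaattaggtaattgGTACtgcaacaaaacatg
CSD1 promoter: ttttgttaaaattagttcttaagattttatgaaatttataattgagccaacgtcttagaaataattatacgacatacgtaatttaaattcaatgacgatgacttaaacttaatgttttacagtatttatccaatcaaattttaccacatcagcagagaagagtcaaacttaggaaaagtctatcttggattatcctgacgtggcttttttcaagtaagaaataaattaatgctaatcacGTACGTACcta
GTAC stands 3 times upstream of YSL2, 2 times upstream of CSD1, which was lower, and 1 time upstream of CCH. It was found 0 times in the windows of COPT2, COPT1 and FRO4, and 3 times in that of RAN1, which was not called. Of 27007 such windows, 34.4% hold GTAC at least 1 time, 7.68% at least 2 times and 1.44% at least 3 times. Photosynthesis genes summed to 22.8 to 39.2 CPM in acd15 acd21 sln, 27.1 to 64.2 CPM in mbd5 mbd6 and 23.46 to 66.8 CPM in wild-type, and their part in the copper values was not tested. Of 13 tested photosynthesis genes only RBCS3B, a Rubisco small subunit gene with near-identical copies, was called, beside 2.26% of all tested features (log2 change -0.54 ± 0.08 SE, adjusted p = 3.28e-06).

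Among other protein-coding genes, UMAMIT41 (chr3:10442608-10445431, plus strand), an amino acid transporter family member, had the smallest adjusted p after SLN. It had 1.62, 2.26, 1.98, 1.47 and 1.83 CPM in acd15 acd21 sln, against 7.90, 7.57, 7.53, 6.50 and 6.40 CPM in mbd5 mbd6, and 1.89, 2.52, 3.05, 1.89 and 3.10 CPM in wild-type. The acd15 acd21 sln libraries overlapped with wild-type and lay below every mbd5 mbd6 library (log2 change -1.94 ± 0.15 SE, adjusted p = 3.18e-13, and -2.01 in batch 1 and -1.90 in batch 2). ORTHL (chr4:5463794-5466747, minus strand), whose name marks it as like the ORTHRUS/VIM proteins that help keep CG methylation, had 192, 200.2, 216, 220.4 and 221 CPM in acd15 acd21 sln, against 288, 302, 278, 295 and 285.4 CPM in mbd5 mbd6, and 235, 236, 209, 232 and 206.5 CPM in wild-type. It was lower than mbd5 mbd6 in all 5 acd15 acd21 sln libraries (log2 change -0.46 ± 0.05 SE, adjusted p = 1.56e-08). Its means of 209.96 ± 13.1 CPM in acd15 acd21 sln, 204 ± 14.2 CPM in sln and 224 ± 14.7 CPM in wild-type stood below 289.8 ± 9.28 CPM in mbd5 mbd6, 287 ± 19.2 CPM in acd15, 304 ± 13.5 CPM in acd21 and 281 ± 14.3 CPM in acd15 acd21 (SD, n = 5 each). RDUF2, a RING-type ubiquitin ligase gene, had 136, 135, 137, 141 and 146 CPM in acd15 acd21 sln, against 105, 107, 97.2, 99.5 and 102 CPM in mbd5 mbd6 (log2 change 0.44 ± 0.05 SE, adjusted p = 7.81e-09). Its groups did not overlap, and wild-type averaged 96.3 ± 5.65 CPM (SD, n = 5).

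The remaining genes with large changes were expressed at low levels. AT3G59740, a lectin receptor kinase gene, averaged 1.17 ± 0.547 CPM in acd15 acd21 sln and 0.200 ± 0.115 CPM in mbd5 mbd6 (log2 change 2.57 ± 0.44 SE, adjusted p = 1.13e-04). The pseudogene AT2G06890 averaged 1.64 ± 0.368 CPM in acd15 acd21 sln and 0.378 ± 0.163 CPM in mbd5 mbd6 (log2 change 2.14 ± 0.28 SE, adjusted p = 3.38e-07). AT5G22355, a gene of the C1 domain family, averaged 1.42 ± 0.335 CPM in acd15 acd21 sln and 0.401 ± 0.199 CPM in mbd5 mbd6 (log2 change 1.82 ± 0.30 SE, adjusted p = 5.73e-05). AT3G06125, a noncoding RNA gene, had 4.93 ± 2.07 CPM in acd15 acd21 sln and 1.37 ± 0.299 CPM in mbd5 mbd6 (log2 change 1.85 ± 0.30 SE, adjusted p = 1.77e-04). Wild-type averaged 0.503 ± 0.124 CPM for AT3G59740, 1.06 ± 0.146 CPM for AT2G06890, 1.20 ± 0.370 CPM for AT5G22355 and 2.50 ± 1.09 CPM for AT3G06125 (SD, n = 5). Against wild-type, AT2G06890 and AT5G22355 were called lower in mbd5 mbd6 (log2 -1.51 and -1.52) and not called in acd15 acd21 sln. AT3G59740 and AT3G06125 were called higher than wild-type in acd15 acd21 sln (log2 1.19 and 0.98) and not called in mbd5 mbd6. On the lower side, AT1G62760, an invertase or pectin methylesterase inhibitor family gene, averaged 0.899 ± 0.209 CPM in acd15 acd21 sln and 2.86 ± 0.575 CPM in mbd5 mbd6 (log2 change -1.66 ± 0.21 SE, adjusted p = 1.53e-07). Beside these, AT1G62760 averaged 0.629 ± 0.213 CPM in sln, 0.432 ± 0.138 CPM in acd15, 0.683 ± 0.0941 CPM in acd21, 2.73 ± 0.435 CPM in acd15 acd21 and 1.97 ± 0.496 CPM in wild-type (SD, n = 5 each). SCRL12, which codes for a small cysteine-rich peptide, averaged 0.989 ± 0.231 CPM in acd15 acd21 sln and 2.48 ± 0.474 CPM in mbd5 mbd6 (log2 change -1.32 ± 0.23 SE, adjusted p = 1.21e-04). Its mean in wild-type was 1.67 ± 0.461 CPM (SD, n = 5). None of these 6 overlapped between the mutants. In batch 1 alone the calls of SCRL12 (adjusted p = 0.291), AT3G59740 (adjusted p = 0.100) and AT1G62760 (adjusted p = 0.0679) were lost. The calls of CYP705A2 (AT4G15350, log2 -1.68), the transposable element AT2TE00075 (log2 -1.36) and novel_Chr5_coding_390 (log2 -1.49) were each lost without single libraries. CYP705A2 had adjusted p = 0.05003 without library 2 of acd15 acd21 sln and 0.0691 without library 5 of mbd5 mbd6, and AT2TE00075 0.0611 without library 3 of acd15 acd21 sln and 0.131 without library 5 of mbd5 mbd6. For novel_Chr5_coding_390 the adjusted p was 0.0582 to 0.0934 without any 1 of libraries 2, 3, 4 and 5 of acd15 acd21 sln or libraries 1 and 3 of mbd5 mbd6. The added coding transcript novel_Chr4_coding_180 fell by 1.37 on the log2 scale, and the transposable elements AT1TE65385 and AT4TE08980 were higher by 1.58 and 1.79. In batch 1 alone novel_Chr4_coding_180 had adjusted p = 0.242 and AT4TE08980 0.0994, and in batch 2 alone novel_Chr4_coding_180 had 0.0540. In batch 2 alone the adjusted p was 0.191 for CYP705A2, 0.0696 for AT2TE00075 and 0.219 for novel_Chr5_coding_390.

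A run of neighbouring genes on chromosome 4 was lower in acd15 acd21 sln than in mbd5 mbd6. It was found because AT4G39110 and AT4G39160 were named by rule and had called neighbours, and its ends were set after the values were seen. Between AT4G39080 and AT4G39180 (chr4:18209399-18248805, 11 gene identifiers), 8 genes were tested and 7 called lower, beside 1.16% of all tested features. The log2 changes of the 8 lay between -0.81 and -0.35 with a median of -0.61, so that mbd5 mbd6 was at a median 1.53 times the level of acd15 acd21 sln. Of the 10 tested genes before the run and the 10 after it, 1 each was called lower, with median log2 changes of -0.13 and 0.02. Against wild-type, the median log2 change of the 8 genes was -0.05 in acd15 acd21 sln, where 0 were called, and 0.52 in mbd5 mbd6, where 7 were called higher.

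AT4G39160, a homeodomain-like gene, had the smallest adjusted p of the run, with 33.4, 37.2, 37.5, 32.8 and 30.4 CPM in acd15 acd21 sln, against 56.3, 55.0, 48.4, 51.5 and 51.4 CPM in mbd5 mbd6, and 37.5, 35.1, 35.7, 35.3 and 38.0 CPM in wild-type. Each mbd5 mbd6 library lay above every other library of these 3 genotypes (log2 change -0.62 ± 0.05 SE, adjusted p = 2.78e-11). VHA-A3, a subunit of the vacuolar proton pump, had 312, 363, 333, 313 and 298 CPM in acd15 acd21 sln, against 488, 500.3, 515, 429 and 415 CPM in mbd5 mbd6 (log2 change -0.53 ± 0.06 SE, adjusted p = 1.56e-08), also without overlap. In the same run were RD19, a papain-family protease (log2 -0.62), the RING gene AT4G39140 (log2 -0.60), and AT4G39170 and SEC14, which code for Sec14p-like lipid transfer proteins (log2 -0.81 and -0.42). AT4G39110, known as BUPS1, a receptor kinase that keeps pollen tubes intact, averaged 4778 ± 484 CPM in acd15 acd21 sln and 6104 ± 760.03 CPM in mbd5 mbd6 with overlapping groups (log2 change -0.35 ± 0.07 SE, adjusted p = 0.00165). Its call was lost in batch 2 alone (adjusted p = 0.235) and with the 10 libraries alone (adjusted p = 0.0792). The call of AT4G39170 was lost in batch 1 alone (log2 -0.53, adjusted p = 0.237). AT4G39150, a DnaJ-domain gene, had log2 -0.61 and was not called (adjusted p = 0.0750). In pollen of the other 4 mutants AT4G39160 averaged between 35.3 and 38.2 CPM (n = 5 each).

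**Figure D5:**
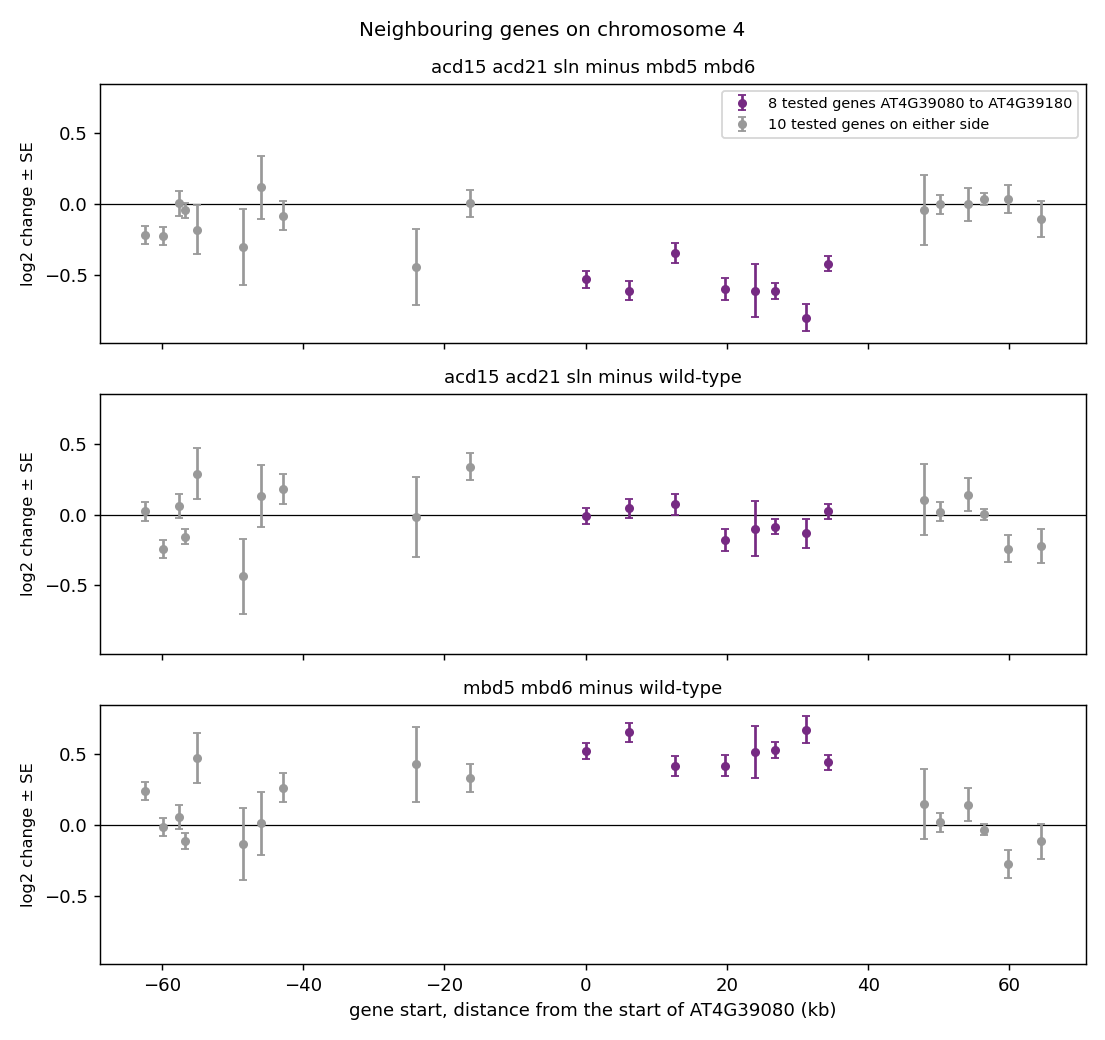
Points give the log2 change ± SE of tested genes against the distance of their start from that of AT4G39080 in kb. Purple marks the 8 genes of the run, and grey the 10 tested genes before it and those after it up to AT4G39260. Contrary to the legend, not all of the 10 tested genes after the run are drawn, and the 1 called lower among them is missing. The panels show acd15 acd21 sln minus mbd5 mbd6, acd15 acd21 sln minus wild-type and mbd5 mbd6 minus wild-type. The 8 genes lie between -0.81 and -0.35 in the top panel, around 0 in the middle panel and around 0.52 in the bottom panel.

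Genes of the silencing machinery and of stress responses gave few or no calls. Of 12 tested genes of DNA methylation and RNA-directed silencing (21 listed), 0 were called, with a median log2 change of 0.00 and a range of -0.25 to 0.21. They include MET1, the maintenance CG methyltransferase, at 74.1 ± 10.6 CPM in acd15 acd21 sln and 76.6 ± 7.57 CPM in mbd5 mbd6, and DDM1, a chromatin remodeller, at 96.0 ± 7.22 CPM in acd15 acd21 sln and 91.9 ± 4.47 CPM in mbd5 mbd6 (SD, n = 5 each). None of 4 tested DNA demethylation genes was called, though all 4 had log2 changes below 0 (median -0.25), and the demethylase ROS1 had 1.18 ± 0.257 CPM in acd15 acd21 sln and 1.71 ± 0.313 CPM in mbd5 mbd6 (adjusted p = 0.376). In wild-type ROS1 had 0.715 ± 0.123 CPM (SD, n = 5). Against wild-type it was called higher in mbd5 mbd6 (log2 change 1.21, adjusted p = 4.95e-04) and not called in acd15 acd21 sln (log2 change 0.74, adjusted p = 0.0869). None of 5 other MBD family genes was called (median 0.23), with MBD4 at 4.43 ± 0.733 CPM in acd15 acd21 sln and 3.51 ± 0.354 CPM in mbd5 mbd6. Of 14 tested heat shock and chaperone genes 0 were called (median -0.09), and HSP70-4 had 29.6 ± 5.79 CPM in acd15 acd21 sln and 30.7 ± 8.93 CPM in mbd5 mbd6 (SD, n = 5 each). None of 5 DNA damage response genes (median -0.19) and of 3 jasmonate and wound response genes (median 0.42) was called. By DESeq2 none of the genes in these 6 lists was called either. An unadjusted p under 0.05 was found for 1 other MBD family gene, 1 demethylation gene and 1 heat shock or chaperone gene, and for 0 genes of the other 3 lists. HSC70-1, which stands on none of these lists, was called higher (log2 change 0.66, adjusted p = 4.57e-05). ORTHL, the gene like ORTHRUS/VIM described above, is also on none of them and was called lower (log2 change -0.46, adjusted p = 1.56e-08). Over all 12106 features the share called was 2.26%, so counts of 0 in lists this short are near the background.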

How the data were processed

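Poly(A) RNA of mature pollen was measured in 35 libraries, of which the 10 of acd15 acd21 sln and mbd5 mbd6 were compared and the 5 of wild-type served as a baseline. The authors deposited whole-number read counts per feature for each library, in tables of 66429 features. Per the submitters' processing notes, Trim Galore, STAR, HTSeq and deepTools were used with the TAIR10 build. No version or strand setting is given in the sources used, so overlapping and antisense genes cannot be told apart with certainty. Reads in no feature and ambiguous reads were left out of library sizes and tests (0.217 to 0.999% and 0.108 to 0.135%). RefSeq annotation of TAIR10.1 gave names and positions for 34395 of 34490 nuclear gene identifiers, and the TAIR10.1 genome gave the printed sequences.

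Counts were tested with edgeR 4.0.16 (R 4.3.3; limma 3.58.1 loaded with it): filterByExpr (minimum count 10, minimum total 15), TMM scaling, robust quasi-likelihood fits of all 35 libraries with terms for genotype and batch, and Benjamini-Hochberg adjustment at 0.05. Errors of log2 changes are standard errors of that fit, and errors of CPM (TMM-scaled, no prior count) are standard deviations over libraries. The share of counts in transposable elements was tested by exact permutation within batches. Total counts of 9267958 to 22208090 per library set the precision, and intervals and floors (3 counts over a group) cover counting error only, since reads without molecular identifiers are not independent molecules. The fit was tested on simulated data.

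Named features were the mutated genes, the 12 largest changes in each direction among called features without overlap, called list members, the 10 smallest adjusted p, the 6 most abundant members of the set of 285, features called against wild-type in opposite directions, the 5 transposable elements with the largest change, and called neighbours of these. The members and lists were chosen with earlier results of these data known, and FWA, SYP122, NAC105 and AT3TE51735 were taken from them. The copper list, the run on chromosome 4, the 5 named sperm cell genes, HSC70-1, UMAMIT13, UMAMIT34 and the numbered run of added transcripts were chosen after their values were seen. Alternatives were DESeq2 1.42.0, other scaling and filters, each batch alone, no batch term, a replicate block, reads in no feature as a covariate, the 10 libraries alone, and each library left out.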

Additional observations from a re-analysis of the deposited data

Results flagged for a closer look

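In groups of 5 libraries, single libraries that stood apart from the other 4 by Dixon's test were looked for in the named features and in 4 measures of the libraries. Of 210 groups, 15 held such a library, and chance flags about 1 in 20 groups. None of the shares of counts, of reads in no feature or of the total counts was among them.

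In acd15 acd21 sln, SYP122 was 13.9 CPM in library 5 against 9.64 to 10.5 CPM in the others. AT4TE08980 was 2.95 CPM in library 4 against 1.89 to 1.98 CPM, and novel_Chr3_noncoding_901 was 198 CPM in library 4 against 168 to 171 CPM. The low libraries were library 3 for SCRL12, at 0.585 CPM against 1.01 to 1.14 CPM, library 1 for AT3G31475, at 146 CPM against 155 to 157 CPM, and library 5 for SEC14, at 831 CPM against 902 to 924 CPM.

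In mbd5 mbd6, AT3G31475 was 138 CPM in library 3 against 115 to 120.2 CPM in the others, and the 2 MBD6 reads of library 5, 0.110 CPM, stood against 0 CPM.

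In wild-type, the high libraries were library 1 for AT2TE09205 (0.157 CPM against 0), for FWA (1.02 CPM against 0.412 to 0.587 CPM) and for FRO4 (2.75 CPM against 2.11 to 2.22 CPM), and library 2 for AT4G04692 (2.60 CPM against 1.26 to 1.58 CPM) and FSD1 (2.097 CPM against 0.944 to 1.13 CPM). The low libraries were library 3 for RDUF2 (86.6 CPM against 97.6 to 101 CPM) and library 1 for novel_Chr3_noncoding_901 (86.2 CPM against 102 to 107 CPM).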

How the results depend on the processing

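Without a minimum fold, the counts of called features fell most in 3 settings: 75 higher and 92 lower in acd15 acd21 sln with the 10 libraries alone, 33 and 49 in batch 1 alone, and 82 higher in batch 2 alone. With a minimum of 2-fold, 35 were higher and 29 lower. In the set of 285, 13 were higher and 10 lower in batch 1 alone, and 14 and 10 at 2-fold or more. Without 1 library at a time, 95 to 167 features were higher and 104 to 205 lower, in the set of 285 between 24 and 35 were higher and between 21 and 30 lower, and the difference in the transposable element share was -0.0298 to -0.00832. Both libraries 1, left out together because they had the most reads in no feature (chosen after seeing the data), gave 158 higher and 209 lower. No named call changed direction under the 21 alternatives, and 29 of 51 named calls held wherever a value was given. Of the rest, 15 were lost in batch 1 alone and 11 in batch 2 alone, and 5 when 1 library was left out, of which FRO4, CYP705A2, AT2TE00075 and novel_Chr5_coding_390 are given with their values, and UMAMIT13 (AT2G37450) had adjusted p = 0.0543 without library 4 of mbd5 mbd6. Same-numbered samples shared part of their deviations in batch 1 and little in batch 2. The correlations of same-numbered deviations from the means of genotype and batch were 0.511, 0.511, -0.0421, -0.00483 and 0.0499 for numbers 1 to 5. In batch 1, with 2 libraries per genotype, the deviations of libraries 1 and 2 mirror each other, so the 2 values of 0.511 are a single value. Whether the numbers pair the samples thus stays unsettled. With a replicate block 150 features were higher and 157 lower, in the set of 285 31 and 29, and an exact test by pairs gave p = 0.125 for the transposable element share, with the difference still -0.0183. Depth limits the loci with few counts, such as AT2G06690, AT5G15360 and MBD6.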

Other observations

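A short run of added transcripts on chromosome 4 shared a direction. Of the 20 transcripts novel_Chr4_noncoding_190 to 209, 4 were tested and 4 were called lower in acd15 acd21 sln than in mbd5 mbd6, beside 1.16% of all tested features and 22 of the 1219 tested added noncoding transcripts. Their log2 changes were -1.30, -0.996, -1.16 and -1.77 for those numbered 193, 194, 199 and 202. The first 2 and the last were far above wild-type in both mutants, and the transcript numbered 199 was not, with log2 changes of -0.32 in acd15 acd21 sln and 0.84 in mbd5 mbd6 against wild-type. The range was set after the values were seen, and the positions of these transcripts were not used here.

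Of 6 tested genes named UMAMIT, 2 were higher, 1 was lower (UMAMIT41) and 3 were not called. UMAMIT34 was at 6.90 CPM in acd15 acd21 sln, against 4.26 CPM in mbd5 mbd6 and 8.44 CPM in wild-type (means, n = 5 each; log2 change 0.71, adjusted p = 6.23e-04). UMAMIT13 had 3.52 CPM in acd15 acd21 sln, 2.12 CPM in mbd5 mbd6 and 3.52 CPM in wild-type (means, n = 5 each; log2 change 0.74, adjusted p = 0.00760). The mutant groups overlapped for both genes. The call of UMAMIT34 was lost in batch 2 alone (adjusted p = 0.0891) and that of UMAMIT13 in batch 1 alone (adjusted p = 0.675), and these genes were picked after their values were seen.

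HSC70-1, the constitutive cytosolic HSP70, with which J-domain proteins work, was higher in acd15 acd21 sln. It had 14.6, 19.2, 25.8, 20.3 and 14.7 CPM in acd15 acd21 sln, against 11.01, 13.4, 11.97, 12.5 and 10.6 CPM in mbd5 mbd6 (log2 change 0.66, adjusted p = 4.57e-05). The call was lost with the 10 libraries alone and in batch 1 alone, where the adjusted p was 0.198, and the gene was picked after its values were seen.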
